A study of Mus musculus with 6 samples.

Results

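The genes described here encode the constitutive subunits, regulators and assembly factors of the proteasome. They were taken from the deposited table as the protein-coding rows whose symbol is Psma, Psmb, Psmc, Psmd, Psme, Psmf or Psmg followed by a number, with the inducible catalytic subunits Psmb8, Psmb9 and Psmb10 left out. This gave 45 of the 53278 genes in the table, chosen by name and gene type and not by their values. RNA was sequenced from type-2 innate lymphoid cells (ILC2s), lymphocytes without antigen receptors that make type-2 cytokines, sorted from the visceral adipose tissue of C57BL/6 mice aged 8 weeks. All mice had been given 3 intraperitoneal injections of 1 µg IL-33, and all cells were then cultured with 10 ng/mL IL-2 and 10 ng/mL IL-7. One group of 3 libraries received DTA-1 at 5 µg/mL, an agonistic antibody to the receptor GITR, and the other group of 3 received the isotype control antibody, which addresses what GITR engagement changes in activated ILC2s. The control libraries are titled isotype and also labelled PBS, and the study's methods name an isotype control. The culture lasted 48 h by the labels and the study's methods, while its results text gives a shorter time. No label says whether the 3 libraries of a group came from separate animals or cultures, so the p-values measure only the spread between these samples, which may be technical.

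The proteasome is the main protease of the cytosol and nucleus and degrades proteins tagged with ubiquitin. Its 20S core is a barrel of alpha rings, which form the gate, around beta rings, which hold the catalytic sites, and its 19S particle is a cap whose ATPases unfold the substrate and whose other subunits bind and remove ubiquitin. Other caps activate the core, dedicated chaperones assemble it, and in immune cells the catalytic subunits can be exchanged for inducible ones to form the immunoproteasome.

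Total counts were 34557215 to 35131329 in the isotype libraries and 30569351 to 32492849 in the DTA-1 libraries, and edgeR's filter on low counts kept 14361 genes. All 12 ILC2 genes of a marker list were present, with a summed normalized count (CPM after TMM normalization, CPM being counts scaled to a common library total) of 12552 to 13567 in isotype and 13681 to 17613 in DTA-1. The sum was higher in DTA-1 without overlap, while 8 of the 12 genes had a log2 fold change below 0 and the median over the list was −0.046. The list holds Il5, Il13 and Arg1 beside genes such as Gata3 and Il7r, and the study reports Il5 and Il13 as induced by DTA-1. The sum is therefore not a measure of how pure the cells were. Summed markers of other cells were low. Those of endothelial cells, at 18.4 to 24.4 in isotype and 10.6 to 18.3 in DTA-1, and of fibroblasts, at 2.20 to 8.39 and 0 to 3.98, were given by few genes, with at most 3 counts of Cdh5 and of Lum in any library. The endothelial sums did not overlap between the groups, being lower in DTA-1, and the fibroblast sums did. The other lists, of macrophages, neutrophils, T cells, B cells, adipocytes and mesothelial cells, summed to at most 12.2 in any library, and their part in the results was not tested. The chi-square distance of counts between libraries, divided by its degrees of freedom, was 9.64 to 11.3 between the library labelled DTA-1 replicate 1 and the isotype libraries, and 27.1 to 28.2 between it and DTA-1 replicates 2 and 3. Over the proteasome genes alone it was 6.63 to 9.93 and 18.4 to 20.9. By its counts that library lay nearer to isotype than to its own group, so results are given with and without it. That choice rests on the counts themselves, so leaving it out tends to widen the group difference and to lower the p-values. Results without it are descriptive and give no support of their own.

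No constitutive proteasome gene passed the test between DTA-1 and isotype control. Of the 45 genes, 43 were tested and 0 were called at an adjusted p under 0.05 and at least 1.5-fold in a quasi-likelihood F test by edgeR, adjusted by Benjamini-Hochberg (BH) over all genes, where 0.0% of all genes tested were called. Without the fold limit the counts were 0 and 0.0% as well. DESeq2's Wald test called 25 of all genes (0.099% of those it tested) and 0 of the 45. At an unadjusted p under 0.05 edgeR gave 3 of the 43 (Psma2, Psmf1 and Psmb7), or 6.98%, beside 7.22% of all genes tested. All 3 were higher in DTA-1, beside 4.11% of all genes higher and 3.11% lower at that p. With the 1.5-fold limit added, the count was 0 of 43 beside 2.35%. The smallest edgeR BH-adjusted p among the 43 was 0.627. In bulk RNA fewer cells of a type and less RNA per cell cannot be told apart.

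Proteasome genes were abundantly expressed and varied little between replicates. Their mean normalized count ran from 13.8 to 433 with a median of 190, against a median of 20.4 over all genes tested, and the median gene ranked at percentile 92.7. Within the isotype group the coefficient of variation had a median of 4.60%, and within DTA-1 of 5.11%, against 10.4% and 11.8% over all genes tested. The 95% interval of the fold change lay within 1.5-fold in either direction for all 43 genes (100%), which held for 58.9% of all genes. The lowest bound was −0.44 on the log2 scale, for Psmg4, and the highest 0.51, for Psma2. A fitted change of at least 1.1-fold was seen for 4 of the 43 (9.30%, against 46.0% of all genes), namely Psma2, Psmf1, Psmb7 and Psmg1. The genes compared were not matched for level, and counting noise is wider at low counts. The part of level in these contrasts was not tested.

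The family as a whole sat close to 0. The median log2 fold change was 0.022, beside −0.0078 over all genes tested, with values from −0.067 for Psmg4 to 0.30 for Psma2. Of the 43 genes, 32 (74.4%, against 48.1% of all genes) were higher in DTA-1 after TMM normalization, but 17 of 43 were higher, with a median of −0.016, when libraries were scaled by total counts, which moved the median of all genes to −0.044. The same count was 17 without DTA-1 replicate 2 and 38 without isotype replicate 1, so the direction of the family as a whole depended on single libraries. Without the library labelled DTA-1 replicate 1, 33 of 43 were higher, the median was 0.049, and edgeR still called 0 of 43, although 111 of all genes (0.744%) were then called. Without the fold limit it was 0 of 43 beside 1.7%. Unadjusted p was under 0.05 for 6 of 43 without it (Psma2, Psmb7, Psmd1, Psmd2, Psmd3 and Psmf1), the same share, 14.0%, as over all genes tested. All 6 were higher in DTA-1, against 7.5% of all genes that were higher at that p.

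**Figure D1:**
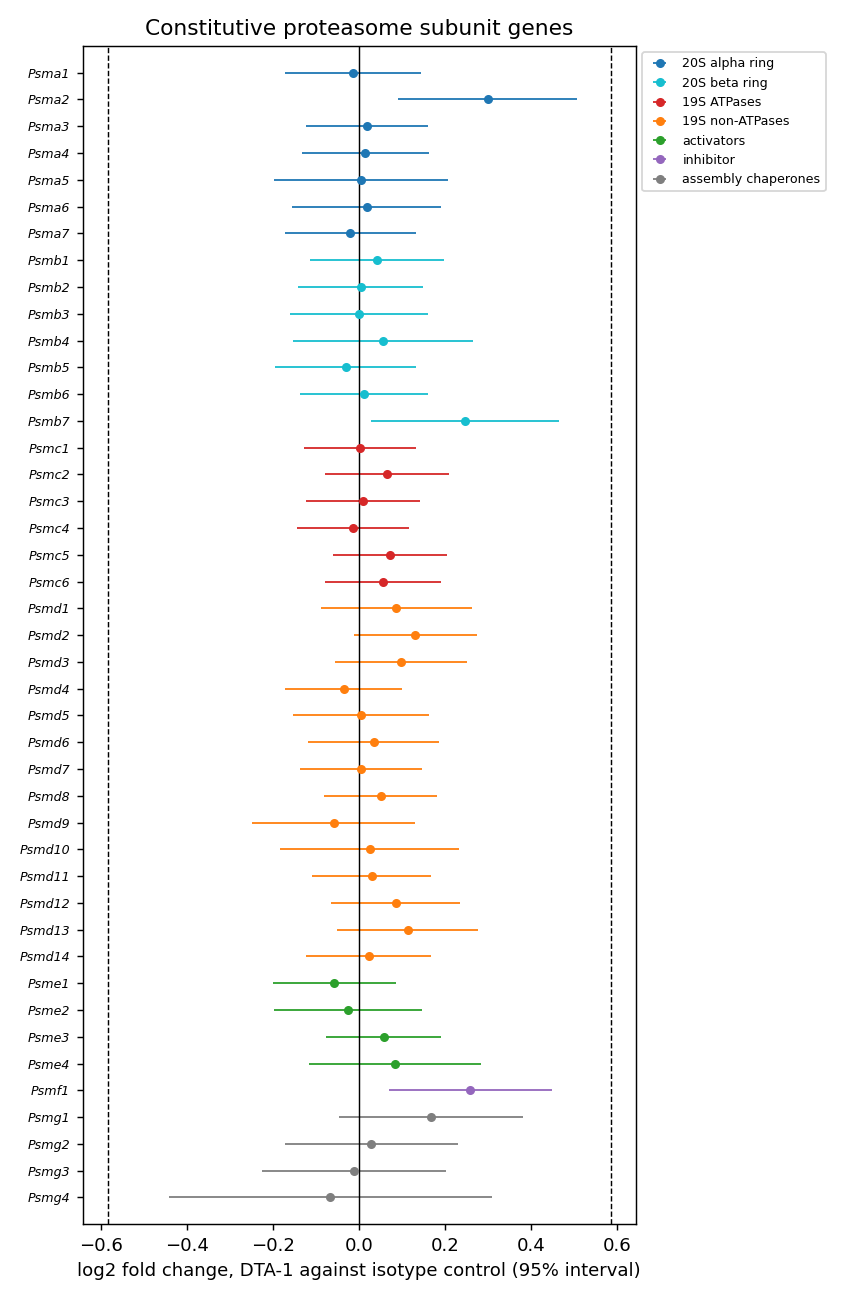
Log2 fold change of DTA-1 against isotype control (x axis) for each tested constitutive proteasome gene (y axis), with bars for the 95% interval from edgeR and colours for the role. Psma2, Psmf1 and Psmb7 stand to the right at 0.30, 0.26 and 0.25, and every interval stays within 1.5-fold. The majority above 0 holds with TMM and not with total counts, or without DTA-1 replicate 2, where 17 of 43 genes are higher.

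As a share of all counts, the 45 genes took 0.809%, 0.766% and 0.780% in the isotype libraries, in the order of their replicate numbers, and 0.787%, 0.814% and 0.767% in the DTA-1 libraries. The groups overlapped, with the highest share in DTA-1 replicate 2 and the lowest in isotype replicate 2.

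In the alpha ring, 7 of 8 genes were tested, 5 higher and 2 lower in DTA-1, with a median log2 fold change of 0.014, whereas with total counts 1 was higher and 6 were lower. Psma2, an alpha ring subunit (chromosome 13, 14613240 to 14674236, GRCm38), had 309.5, 269 and 278 normalized counts in isotype, in the order of replicate numbers used throughout, and 308, 402 and 344 in DTA-1. DTA-1 replicates 2 and 3 were above every isotype library, whereas DTA-1 replicate 1 lay just below isotype replicate 1, so the groups overlapped. The log2 fold change was 0.30 (standard error, SE, 0.095, unadjusted p = 0.0094, edgeR BH-adjusted p = 0.627). Leaving out DTA-1 replicate 1 gave 0.38 (edgeR BH-adjusted p = 0.057, and 0.057 to 0.9985 across alternative settings). The deposited span of Psma2 overlaps the gene AW209491 on the same strand over 8943 bases, and AW209491 had a mean of 607 counts against 10537 for Psma2. Psma6, another alpha ring subunit and one of the 3 proteasome genes with the highest level per length of merged exons, had 169, 149 and 167 normalized counts in isotype and 167, 175 and 149.6 in DTA-1, which overlapped (log2 fold change 0.018, SE 0.079). Psma8, the testis form of an alpha subunit, was removed by the filter with 0, 4 and 0 counts in isotype and 0, 0 and 4 in DTA-1.

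In the beta ring, 7 of 8 genes were tested, again 5 higher and 2 lower, with a median of 0.011, and with total counts 3 were higher and 4 lower. Of the 3 catalytic subunits Psmb7 alone had an unadjusted p under 0.05. Psmb5, the chymotrypsin-like subunit, had 231, 195 and 215.5 normalized counts in isotype and 215.5, 215 and 198 in DTA-1, with every DTA-1 library inside the isotype range. Its log2 fold change was −0.031 (SE 0.075, 95% interval −0.20 to 0.13, edgeR BH-adjusted p = 0.952). Psmb6, the caspase-like subunit, had 226, 196.5 and 209.5 in isotype and 211, 218 and 208.5 in DTA-1, also inside the isotype range (log2 fold change 0.011, SE 0.068, interval −0.14 to 0.16). For both the sign of the fold change turned with single libraries, and for Psmb6 also with total counts (−0.026).

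Psmb7, the trypsin-like subunit (chromosome 2, 38588036 to 38644087), had 174, 151 and 161 normalized counts in isotype and 166, 221 and 189.9 in DTA-1. DTA-1 replicates 2 and 3 were the highest of the 6 libraries, and DTA-1 replicate 1 lay inside the isotype range. The log2 fold change was 0.25 (SE 0.099, unadjusted p = 0.030, edgeR BH-adjusted p = 0.657), and 0.34 without DTA-1 replicate 1 (edgeR BH-adjusted p = 0.098, alternatives 0.098 to 0.9985). Psmb7 overlaps Nek6 on the opposite strand over 6571 bases, and Nek6 had a mean of 4393 counts against 5873 for Psmb7, with a log2 fold change of its own of 0.10. Whether the counting used strand is not given in the sources used here, so reads of that stretch cannot be told apart. Psmb2, a beta subunit without catalytic activity and second in level per length of merged exons, had 261, 243 and 243 normalized counts in isotype and 254, 262 and 233.5 in DTA-1, which overlapped (log2 fold change 0.0031, and −0.033 with total counts). Psmb11, the catalytic subunit of the thymus, was removed by the filter with 0 counts in 5 libraries and 1 count in DTA-1 replicate 2.

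**Figure D2:**
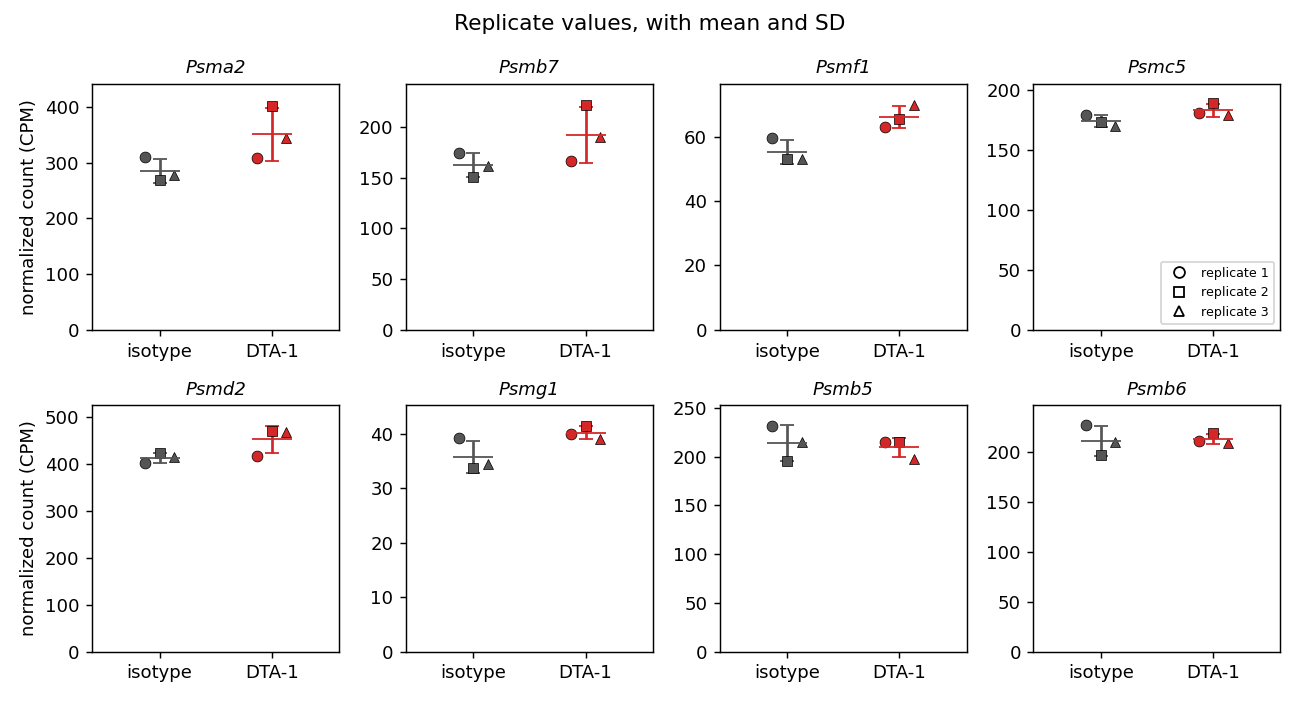
Normalized counts (CPM after TMM, y axis from 0) of named proteasome genes in the 3 isotype and 3 DTA-1 libraries (points), with the mean and SD (horizontal line and bar, n = 3). For Psma2 and Psmb7 the DTA-1 points spread upward from the isotype range, while for Psmb5 and Psmb6 all 3 DTA-1 points fall inside it.

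The inducible counterparts, left out of the family by its definition, showed no call either, with 0 of 3 called and all 3 fold changes below 0. Psmb8, which replaces Psmb5, had 623, 548 and 575 normalized counts in isotype and 612, 577 and 539.8 in DTA-1 (log2 fold change −0.015, edgeR BH-adjusted p = 0.976). Psmb9, which replaces Psmb6, had 147, 133 and 144 against 142, 127 and 124 (−0.11, edgeR BH-adjusted p = 0.772), and Psmb10, which replaces Psmb7, had 84.0, 67.8 and 82.4 against 80.2, 76.5 and 70.9 (−0.042, edgeR BH-adjusted p = 0.950). All 3 pairs of groups overlapped. Without DTA-1 replicate 1 the fold changes were −0.060, −0.17 and −0.084 on the log2 scale. The count ratio of Psmb10 to Psmb7 was 0.482, 0.449 and 0.511 in isotype and 0.483, 0.346 and 0.373 in DTA-1, lowest in DTA-1 replicates 2 and 3. The ratio of Psmb9 to Psmb6 was likewise lowest there, at 0.584 and 0.596, against 0.649 to 0.688 in isotype and 0.673 in DTA-1 replicate 1. The ratio of Psmb8 to Psmb5 was 2.67 to 2.81 in isotype and 2.69 to 2.84 in DTA-1. These ratios were compared without a test.

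All Psmc and Psmd genes were grouped as the 19S particle throughout, which includes the assembly chaperones Psmd5, Psmd9 and Psmd10. Of these 20 genes, 17 were higher and 3 lower in DTA-1, with a median log2 fold change of 0.031. With total counts 9 were higher and 11 lower (median −0.0061). Of the 20, 0 had an unadjusted p under 0.05, beside 7.22% of all genes tested. Of the 6 ATPases, Psmc1 to Psmc6, 5 were higher and 1 lower, with a median of 0.032, and with total counts 3 were higher and 3 lower. Psmc5, an ATPase of the base (chromosome 11, 106256154 to 106263120), had 178.7, 173 and 169 normalized counts in isotype and 180.3, 188.8 and 178.8 in DTA-1. After TMM the lowest DTA-1 library was just above the highest isotype library, so the groups did not overlap. The log2 fold change was only 0.071 (SE 0.060, edgeR BH-adjusted p = 0.834), and 0.035 with total counts. Scaled by total counts, DTA-1 replicate 3 (5701.16 of 32492849) was below isotype replicate 1 (6322.76 of 35131329), so the groups overlapped. After TMM, groups without overlap were found for 2 of the 43 genes, Psmc5 and Psmf1, both higher. That is 4.65% beside 11.3% of all genes in either direction, 5.26% higher and 6.03% lower. When DTA-1 replicate 1 was left out, 12 of 43 did not overlap and were higher and 0 were lower, beside 15.5% and 16.1% of all genes. These counts are after TMM. With all 6 libraries, 17 of the 43 genes were higher in DTA-1 under total counts, and 17 without DTA-1 replicate 2.

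Psmd2, one of the large scaffold subunits of the 19S base, which binds ubiquitin and its shuttle proteins (chromosome 16, 20651652 to 20663414), had 402.5, 423.5 and 414.8 normalized counts in isotype and 418, 471 and 469 in DTA-1. DTA-1 replicates 2 and 3 were above all isotype libraries and DTA-1 replicate 1 was among them. Its log2 fold change was 0.13 (SE 0.065, edgeR BH-adjusted p = 0.720), and 0.18 without that library (edgeR BH-adjusted p = 0.150, alternatives 0.150 to 0.9985). Psmd1 and Psmd3, a second scaffold and a lid subunit, had log2 fold changes of 0.086 and 0.097, which without DTA-1 replicate 1 were 0.17 and 0.16. Psmd14, the deubiquitinase of the lid, had 0.022 (0.051 without it), and Psmd4, a ubiquitin receptor, had −0.036 (−0.058). Psmd9, an assembly chaperone of the base, had one of the 3 lowest levels per length among the tested genes. It had 53.5, 47.1 and 51.6 normalized counts in isotype and 49.4, 47.9 and 49.0 in DTA-1, all inside the isotype range (log2 fold change −0.059, SE 0.086). The other base chaperones, Psmd5 and Psmd10, had 0.0044 and 0.024 (0.041 and 0.049).

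Among the regulators, Psmf1, an inhibitor of the core in vitro (chromosome 2, 151715812 to 151744186), had 59.6, 53.1 and 52.9 normalized counts in isotype and 62.8, 65.5 and 69.8 in DTA-1. All 3 DTA-1 libraries were above all isotype libraries. Its log2 fold change was 0.26 (SE 0.086, unadjusted p = 0.012, edgeR BH-adjusted p = 0.627), and 0.29 without DTA-1 replicate 1 (edgeR BH-adjusted p = 0.178, alternatives 0.178 to 0.9985). Leaving out any one library kept it between 0.22 and 0.32. The activators were split, 2 higher and 2 lower: Psme1 and Psme2, the subunits of the interferon-inducible activator, had −0.058 and −0.027, and Psme3, its nuclear relative, had 0.057. Without DTA-1 replicate 1 these were −0.080, −0.070 and 0.029. Psme4, a large single-chain activator, had the lowest level per length of the tested genes of the family. It had 37.6, 37.4 and 38.7 normalized counts in isotype and 37.6, 41.4 and 41.6 in DTA-1. DTA-1 replicate 1 was thus among the isotype libraries and the others above them (log2 fold change 0.084, SE 0.091, and 0.13 without that library).

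Of the 4 Psmg chaperones, which assemble the alpha ring, 2 were higher and 2 lower, with a median of 0.0079 (1 higher and 3 lower with total counts). Psmg1 (chromosome 16, 95979933 to 95990960) had 39.2, 33.7 and 34.4 normalized counts in isotype and 40.0, 41.4 and 39.0 in DTA-1, and the groups overlapped only through isotype replicate 1. Its log2 fold change was 0.17 (SE 0.097, edgeR BH-adjusted p = 0.740), with 0.17 also without DTA-1 replicate 1. Its partner Psmg2 had 0.028. Psmg4 had the lowest counts of the tested family, 16.05, 12.7 and 13.7 in isotype and 15.1, 14.7 and 10.8 in DTA-1, and the widest interval (−0.44 to 0.31), with a log2 fold change of −0.16 without DTA-1 replicate 1.

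The promoters of 4 genes are shown because they span the pattern above: the alpha subunit Psma2 and the inhibitor Psmf1 with the largest fold changes, and the catalytic subunits Psmb5 and Psmb6 with fold changes near 0. Sequences are RefSeq windows of GRCm38.p6 from 250 bases before to 50 bases after the start site, written 5′ to 3′ on the gene's strand, and 37 of the 45 genes have such a window (Psmb7 is not among them). Capitals mark matches on either strand to CCAAT, the box bound by NF-Y, or to TGACNNNGC, the core of the antioxidant response element bound by Nfe2l1 and Nfe2l2. The windows are chr13:14612992-14613291 for Psma2 (plus strand), chr2:151741261-151741560 for Psmf1 (minus strand), chr14:54617946-54618245 for Psmb5 (minus strand) and chr11:70525107-70525406 for Psmb6 (plus strand).
Psma2: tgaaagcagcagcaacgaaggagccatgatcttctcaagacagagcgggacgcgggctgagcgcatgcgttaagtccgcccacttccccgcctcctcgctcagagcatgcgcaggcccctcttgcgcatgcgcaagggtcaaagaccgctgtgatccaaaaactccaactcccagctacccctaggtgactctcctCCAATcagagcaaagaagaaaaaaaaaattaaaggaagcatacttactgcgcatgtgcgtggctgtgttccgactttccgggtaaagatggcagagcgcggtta
Psmf1: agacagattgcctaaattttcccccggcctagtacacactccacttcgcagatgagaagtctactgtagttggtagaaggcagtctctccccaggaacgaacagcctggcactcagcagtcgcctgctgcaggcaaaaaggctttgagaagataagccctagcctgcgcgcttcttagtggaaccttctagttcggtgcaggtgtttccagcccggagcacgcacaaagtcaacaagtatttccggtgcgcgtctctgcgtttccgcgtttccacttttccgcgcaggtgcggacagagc
Psmb5: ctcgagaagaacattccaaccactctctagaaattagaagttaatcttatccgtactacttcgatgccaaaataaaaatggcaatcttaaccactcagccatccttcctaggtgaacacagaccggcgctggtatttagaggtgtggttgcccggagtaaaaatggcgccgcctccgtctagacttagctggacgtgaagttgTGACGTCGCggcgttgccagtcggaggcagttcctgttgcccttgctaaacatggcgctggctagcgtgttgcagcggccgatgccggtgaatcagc
Psmb6: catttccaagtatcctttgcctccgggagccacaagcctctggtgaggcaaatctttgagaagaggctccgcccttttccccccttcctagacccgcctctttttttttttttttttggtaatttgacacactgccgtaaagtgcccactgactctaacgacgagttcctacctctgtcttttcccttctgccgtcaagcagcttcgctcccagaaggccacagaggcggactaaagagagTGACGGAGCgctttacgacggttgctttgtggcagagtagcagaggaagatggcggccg

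Psma2 holds CCAAT at bases 197 to 201 of its window. Psmb5 and Psmb6 hold the element core at bases 204 to 212 and 242 to 250. The Psmf1 window holds neither string. It lies wholly inside the deposited span of the gene, away from the upstream end of that span, and other start sites were not searched. CCAAT was found in 13 of 37 windows (35.1%) beside 42.1% of 16400 protein-coding genes, and the element core in 6 of 37 (16.2%) beside 15.0%. A match is a description of letters and not of a binding site, and the strings were chosen with the expression values known.

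Levels between genes were compared only per length, as a TPM-like value from counts and exon length in GENCODE M21. With merged exons, the highest mean levels among the tested genes were 714 for Psmb5, 628 for Psmb2 and 399.6 for Psma6. The lowest among the tested genes were 14.1 for Psme4, 20.8 for Psmd9 and 28.5 for Psmf1. The core genes spread 4.55-fold with merged exons and 2.93-fold, from 266 to 780.2, with the length of the principal transcript, an alternative added after the values were seen. With that length the order at the top changed to Psmb3 (780.2), Psma1 (767) and Psma7 (755), followed by Psmb2 (725), with Psmb5 at 588 and Psma6 at 389.8, while Psme4 (15.0), Psmf1 (39.7) and Psmd9 (47.8) were again the lowest of the tested genes with such a length (Psmd4, Psmd8 and Psmd10 had none). The 6 ATPases spread 1.73-fold with principal transcripts, from 216 to 373, and the alpha ring chaperones stood lower, at 62.2 to 124. In the plot of level per length the ranges of core, ATPase and other 19S genes overlap.

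**Figure D3:**
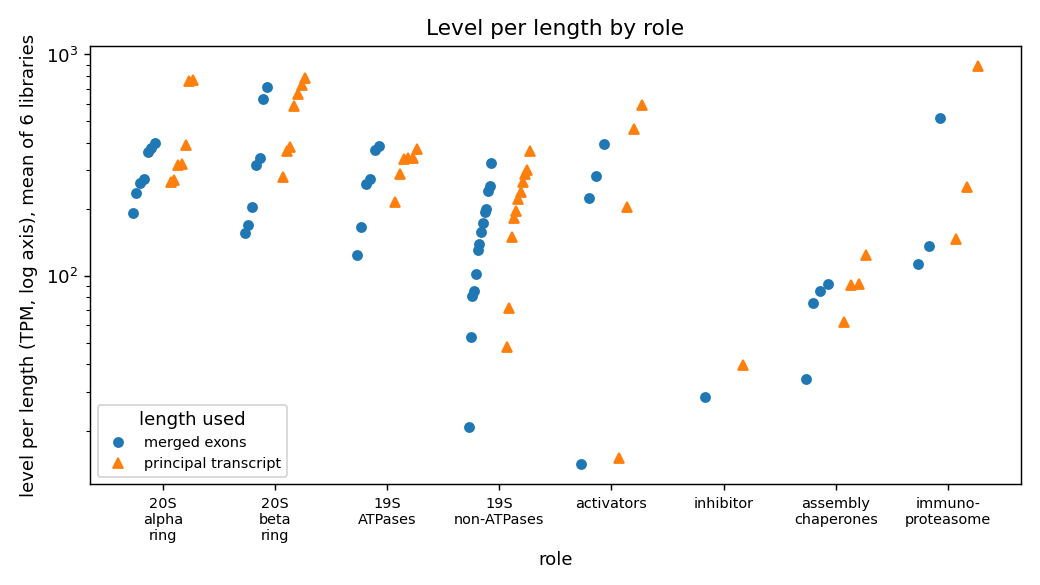
Mean level per length over the 6 libraries (TPM, log axis) of each tested gene by role, with merged exons (circles) and with the principal transcript (triangles). Core subunits reach 714 with merged exons and the Psmg chaperones stay at or under 124 with either length.

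The core genes shared an order of the isotype libraries. All 14 tested core genes (100%) were highest in isotype replicate 1 and lowest in isotype replicate 2, beside 3 of 20 of the 19S genes (15.0%) and 20.2% of all genes tested. That order was picked because the core genes showed it, so the contrast is descriptive and gives no support of its own. The sets compared were not matched for level. The principal transcript of the core genes had a median of 1162.5 bases, against 1904 for the 17 19S genes with a length. Of genes as short as the core, 245 of 534 (45.9%) had that order of libraries, and of genes as long as the 19S genes 514 of 2241 (22.9%). The ratio of summed core to summed 19S counts was 0.899, 0.806 and 0.856 in isotype and 0.868, 0.881 and 0.809 in DTA-1, all DTA-1 values inside the isotype range. The part of transcript length in this order was not tested.

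**Figure D4:**
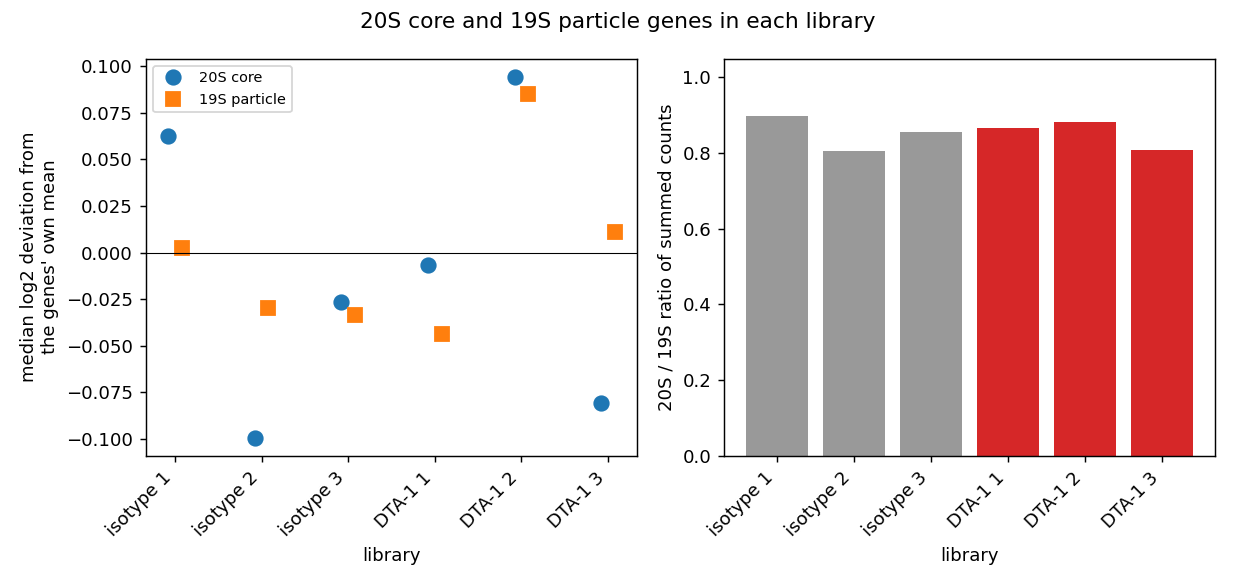
For each library, the median log2 deviation from the genes' own mean for 20S core genes (circles) and 19S genes (squares, left), and the ratio of summed 20S to 19S counts (right, bars from 0, grey for isotype and red for DTA-1). Core genes range from −0.099 in isotype replicate 2 to 0.094 in DTA-1 replicate 2, and the ratio stays between 0.806 and 0.899. The 19S genes here are all Psmc and Psmd genes, with the assembly chaperones among them.

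Across all 6 libraries, 25 of the 43 genes were highest in DTA-1 replicate 2 and 41 of 43 were above their own mean there, whereas 15 were lowest in isotype replicate 2. DTA-1 replicates 1 and 3 had 16 and 18 genes above their own mean. These values are after TMM, and the same counts over all genes tested were not made. They are therefore not shown to be particular to the family. The lowest coefficient of variation in isotype was that of Psmd11, a lid subunit, at 0.823%. In DTA-1 Psmd11 had 5.08%, near the family median of 5.11% there. The highest was that of Psmg4, with 12.1% in isotype and 17.8% in DTA-1.

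**Figure D5:**
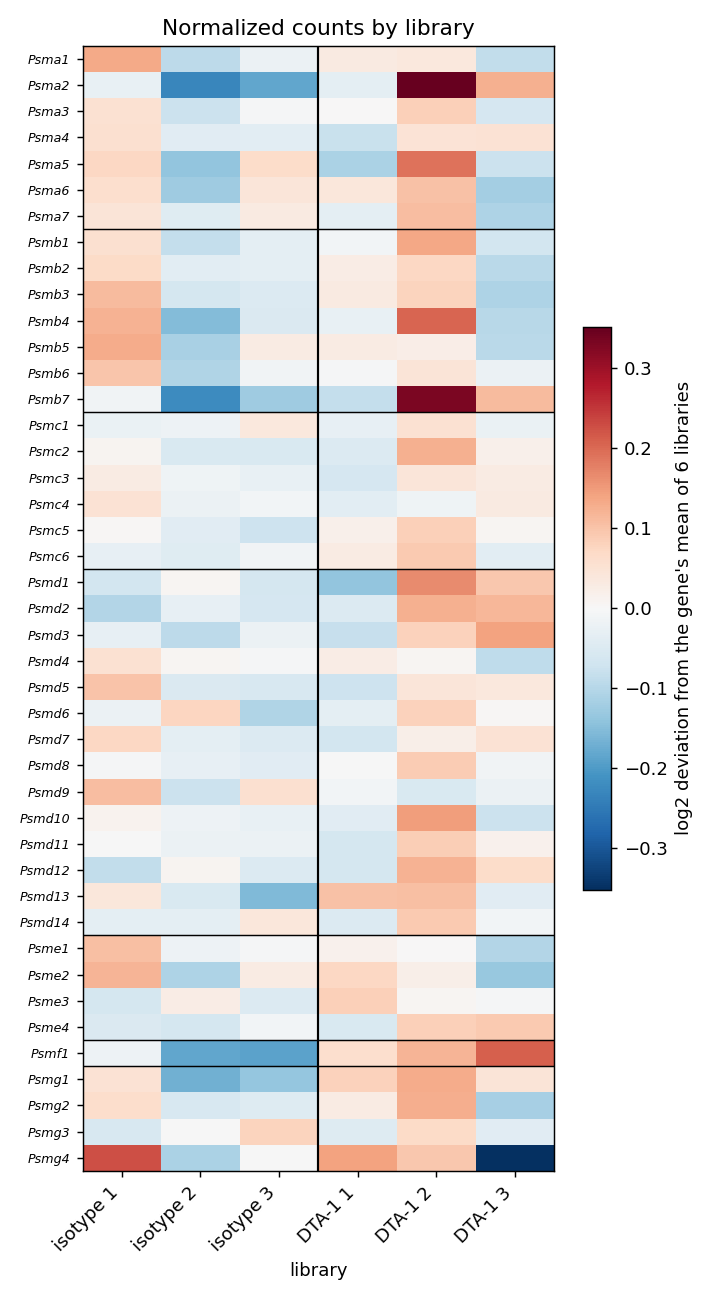
Log2 deviation of each gene's normalized count from its mean of 6 libraries (colour), with genes as rows and libraries as columns. The column of DTA-1 replicate 2 is above the mean for 41 of 43 genes, and that of isotype replicate 2 for 5 of 43. Counts over all genes tested were not made for comparison.

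Genes around the proteasome gave 0 calls by edgeR. Of 9 proteasome genes outside the symbol rule, 7 were higher and 2 lower (3 and 6 with total counts). An unadjusted p under 0.05 was found for 0 of the 9, beside 7.22% of all genes tested. Usp14, a deubiquitinase of the 19S particle, had 122, 127 and 115 normalized counts in isotype and 131, 140.0 and 132 in DTA-1, without overlap (log2 fold change 0.14, SE 0.068). Akirin2, which carries proteasomes into the nucleus, was lower without overlap, with 63.5, 59.6 and 62.9 against 49.6, 58.4 and 58.2 (−0.16, SE 0.090). Its lowest value was in DTA-1 replicate 1, and without that library the log2 fold change was −0.088. AI314180, which encodes the scaffold that tethers the core to its cap (Ecm29), had 0.12. Of 9 genes of transcriptional control 6 were higher and 3 lower (5 and 4 with total counts). An unadjusted p under 0.05 was found for 0 of these 9, beside 7.22% of all genes tested. The 9 included Ngly1, the deglycosylase that processes Nfe2l1 (−0.12), Nfya (0.11) and the sparsely counted Foxo4 (0.63, SE 0.45). Without DTA-1 replicate 1 Ngly1, Nfya and Foxo4 had −0.21, 0.205 and 0.83.

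Of 15 tested genes of ubiquitin, its activating enzymes and delivery to the proteasome, 12 were higher and 3 lower (11 and 4 with total counts). Of all genes tested 48.1% were higher. An unadjusted p under 0.05 was found for 1 of the 15, beside 7.22% of all genes. Groups did not overlap for 2 higher and 1 lower, beside 5.26% and 6.03% of all genes. The shuttle Ubqln2 had a log2 fold change of 0.32 (SE 0.21), the activating enzyme Uba6 0.27 (0.14) and Vcp, the ATPase that extracts ubiquitylated proteins, 0.16 (0.081). Without DTA-1 replicate 1 Vcp had 0.25 (edgeR BH-adjusted p = 0.054, alternatives 0.054 to 0.9985). The cytosolic chaperonin, a ring that folds actin and tubulin, served as another complex of fixed composition. It had 8 of 8 genes higher with a median of 0.11 (7 of 8 and 0.072 with total counts). Groups did not overlap for 4 of the 8, all higher, beside 5.26% of all genes. An unadjusted p under 0.05 was found for 3 of the 8, beside 7.22% of all genes. Those 3 were Tcp1 (0.19, SE 0.074), Cct8 (0.15, 0.057) and Cct6a (0.15, 0.063). For Tcp1 the edgeR BH-adjusted p was 0.655, and 0.080 without DTA-1 replicate 1 (alternatives 0.080 to 0.9985).

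The proteasome genes are spread over the genome, with 8 of 45 on chromosome 11, 6 on chromosome 14 and 6 on chromosome 2. On chromosome 14 Psmb5 lies next to Psmb11 and Psme1 next to Psme2. Psmb5 was counted in every library while its neighbour Psmb11 had at most 1 count.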

How the data were processed

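Gene expression was measured by RNA-seq in 6 libraries, each from 10 ng of RNA, with 3 in each group. The submitters' processing notes name bcl2fastq 2.17.1.14, STAR 2.5.3a, Partek and mm10, and the authors deposited expected counts (estimated reads per gene, without normalization). No column was left out. Of 49721 symbols shared with GENCODE M21, 47741 had the same start and end, as had 42 of the 45 proteasome genes. Stop in the table was read as 1 base past the end. At this depth 3 counts, the limit a count of 0 allows, equal 0.0854 to 0.0981 CPM, for counting error only.

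Rounded expected counts were fitted with edgeR 4.0.16 under R 4.3.3, using TMM, filterByExpr with the group given, and a robust quasi-likelihood F test (common dispersion 0.0256). Genes were called at an adjusted p under 0.05 and at least 1.5-fold, adjusted over all 14361 genes tested. Intervals have a level of 95%. Alternatives used DESeq2 1.42.0 (size factors, Wald test), total counts, limma 3.58.1 (limma-trend, prior count 2), no filter, a minimum of 10 counts per library, a block for the replicate number, an unadjusted p, no fold limit, and each library left out. On simulated data with 200 genes changed 2-fold, edgeR recovered 197, with 10 false calls among 14152 genes. The simulation gave every gene the common dispersion, changed only better-counted genes and shifted every DTA-1 library alike. Genes in the real libraries differ in dispersion and DTA-1 replicate 1 lay near isotype, so it does not give the power for these data. Python 3.11.15 was used for tables and figures.

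The genes and lists were chosen with earlier results of these data known. Genes named in every library were the constitutive catalytic subunits, the 5 with the smallest p and the 5 with the largest fold change. Also named were the 3 highest and 3 lowest per length among those tested, those removed by the filter and those without overlap. The immunoproteasome genes and at most 3 from each related list were added.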

Additional observations from a re-analysis of the deposited data

How the results depend on the processing

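The number of constitutive proteasome genes called was 0 under every alternative run. Over all genes, the count of 0 became 25 with DESeq2's Wald test, 2 without a filter, 1 with the replicate number as a block, 337 with an unadjusted p at 1.5-fold, and 0 to 111 with one library left out, the 111 when DTA-1 replicate 1 was absent. The median log2 fold change of the family, 0.022, was −0.016 with total counts, 0.021 with the block, and −0.0049 to 0.055 with one library left out. The share of counts was 0.695% in isotype and 0.701% in DTA-1 for core and 19S genes alone. With total counts the sign turned for Psmb6 (−0.026), Psmb2 (−0.033) and Psma6 (−0.019). With one library left out the log2 fold change ran from −0.093 to 0.032 for Psmb5, −0.037 to 0.069 for Psmb6, −0.027 to 0.049 for Psmb2, −0.039 to 0.079 for Psma6, −0.060 to 0.041 for Psmb8 and −0.13 to 0.018 for Psmb10, and the cause was not tested. Same-numbered libraries had deviations with r of −0.0069, −0.0028 and 0.015, and 1 of 3 pairs correlated best with its own number. The labels give no pairing, and whether same-numbered libraries share an animal or culture cannot be told from these values. Psma8 and Psmb11 had too few counts to be tested.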
